A study of Mus musculus with 4 samples.

Results

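Small RNAs that map to mouse 3' UTRs but differ from the genome at 1 base inside the sequence were described in liver and spleen. The members are entries of the 4 deposited sequence lists that hold no N and whose single best placement on the NCBIM37 genome has 1 mismatch. That mismatch had to lie before the last base in the direction of the gene, within a 3' UTR that GENCODE M1 annotates for a protein-coding gene, and outside the Mir21 gene (chr11:86397569-86397660). There were 500 such entries, 486 of them distinct sequences, among the 7845 entries of the lists. They were chosen by the measured sequence itself, so the presence of a mismatch and its absence from the last base are the rule and not a result.

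The lists came from size-selected small RNA of adult C57BL/6 mice, sequenced in 1 library per tissue and genotype. The groups were WT liver, WT spleen, Miwi2-/- liver and Miwi2-/- spleen, where Miwi2-/- mice lack a functional gene for MIWI2, a PIWI protein that binds piRNAs in the fetal testis. Liver and spleen of a genotype came from the same mouse, 1 per genotype, so there is no replicate and no test between groups, and genotype, mouse and library cannot be told apart. Each list holds distinct sequences without read counts, so a mismatch seen in 1 read and a mismatch seen in many weigh the same. WT liver had 4273 entries, WT spleen 2634, Miwi2-/- liver 560 and Miwi2-/- spleen 378. Of 10 liver marker genes, 4 had sequences in the WT liver list and 0 in the WT spleen list, while 0 of 10 spleen marker genes had a sequence in any list, so the lists of spleen sequences could not be checked by those markers.

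A base in RNA can differ from the genome in several known ways. ADAR enzymes deaminate adenosine to inosine in double-stranded RNA, which reverse transcriptase reads as guanine, so editing of this kind appears as A-to-G in gene direction. APOBEC1 deaminates cytidine to uridine in 3' UTRs of several mRNAs and appears as C-to-T. Terminal transferases add adenosines or uridines to 3' ends, the ends left by a trimmed sequencing adapter can carry adapter bases, and sequencing errors and differences between mice also give mismatches.

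Most members carried their mismatch close to the 3' end, and these ends took a few forms. The following sequences show them, each read 5' to 3' in gene direction with the mismatched base in capitals, and with the genome sequence of the same place where it helps the comparison. The Mt1 pair (metallothionein 1, a metal-binding protein; chr8:96704203-96704228 and chr8:96704204-96704228, plus strand) and the Cdk13 sequence (a cyclin-dependent kinase; chr13:17809518-17809542, minus strand) end in ATC. The Trim25 sequence (a ubiquitin ligase of innate immunity; chr11:88879026-88879053, plus strand) ends in a mismatched T and an A. The Mbnl1 sequences (a splicing regulator; chr3:60431251-60431274 and chr3:60431251-60431275, plus strand) end in A only from the mismatch on. These examples were picked after their values were seen.
Mt1, WT liver and Miwi2-/- liver: ataataaaagcctgtttgagtctaTc
Mt1, genome: ataataaaagcctgtttgagtctaAc
Mt1, WT liver: taataaaagcctgtttgagtctaTc
Cdk13, WT liver: agtttggaccaacttttatgtaaTc
Trim25, WT liver: attgtagatactgggctgatggctatTa
Trim25, genome: attgtagatactgggctgatggctatAa
Mbnl1, WT spleen: atatgccatttctgagacacaaAa
Mbnl1, WT spleen, 1 base longer: atatgccatttctgagacacaaAaa
Mbnl1, genome: atatgccatttctgagacacaaTaa

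The A-to-G members, the form in which A-to-I editing would be read, were few enough to show them all. They lay in the 3' UTRs of Pgrmc1 (a heme-binding membrane protein; chrX:34145621-34145649, plus strand), C130039O16Rik (chr12:85490133-85490156, minus strand), Hist1h1c (linker histone H1.2; chr13:23831411-23831435, plus strand), Etnk1 (ethanolamine kinase; chr6:143153016-143153040, plus strand), Hs6st2 (a heparan sulfate sulfotransferase; chrX:48741691-48741711, minus strand), Scd1 (stearoyl-CoA desaturase; chr19:44469283-44469304, minus strand) and Errfi1 (an inhibitor of EGF receptor signalling; chr4:150242621-150242642, plus strand).
Pgrmc1, WT liver: tggttatgtggttattgaccagctgtGaa
C130039O16Rik, WT spleen: tatcttaGgaccttttattaaata
Hist1h1c, WT spleen: agagctgtgacatttgtgtgattGa
Etnk1, WT spleen: caGataaggaaatgtgaattagaca
Hs6st2, WT spleen: tcaggactttctGtagaattg
Scd1, Miwi2-/- liver: aggtgattagagctttttttGa
Errfi1, Miwi2-/- liver: ttcctgctttgaaaGctcacgc

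Members made up a few percent of every list. They were 240 of the WT liver entries (5.62%, exact binomial 95% interval 4.95 to 6.35%), 202 of WT spleen (7.67%, 6.68 to 8.75%), 31 of Miwi2-/- liver (5.54%, 3.79 to 7.77%) and 27 of Miwi2-/- spleen (7.14%, 4.76 to 10.2%). These intervals, like all those below, cover counting error only and treat entries as independent, although many overlap. The 2 spleen lists had the higher shares and the intervals of the WT lists did not overlap. The interval of each Miwi2-/- list held the WT value of its tissue. The gap between the WT intervals did not hold in every alternative. Without Hist1h1c, WT liver was 5.55% (4.88 to 6.28%) and WT spleen 6.76% (5.83 to 7.78%), so the intervals overlapped. They also overlapped with each position and change counted 1 time, and without members that fit elsewhere at 2 mismatches. Because at most 1 mismatch was allowed, a member matches the genome at its last base. The sequences with no mismatch, called exact here, are therefore the like-for-like remainder, and there were 2729 of them in the same 3' UTRs, with 2869 more that differed only at the last base. Of members and exact sequences together, members were 13.3% for WT liver, 14.7% for Miwi2-/- liver, 18.7% for WT spleen and 20.8% for Miwi2-/- spleen.

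The position of the mismatch was uneven. It lay at the next-to-last base in 252 of 500 members (50.4%, 45.9 to 54.9%) and at the third base from the end in 81. It lay at the first base in 75, and 92 carried it in the interior, meaning neither at the first base nor within the last 3 bases. Per 1000 such positions in members and exact sequences together, the mismatch rate was 78.0 (69.0 to 87.8) at the next-to-last base, 25.1 (19.97 to 31.1) at the third base from the end, 23.2 (18.3 to 29.03) at the first base and 1.41 (1.14 to 1.73) in the interior. The interior rate is thus far below that at either end, and the intervals of the 3 end positions lie wholly above it.

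**Figure D1:**
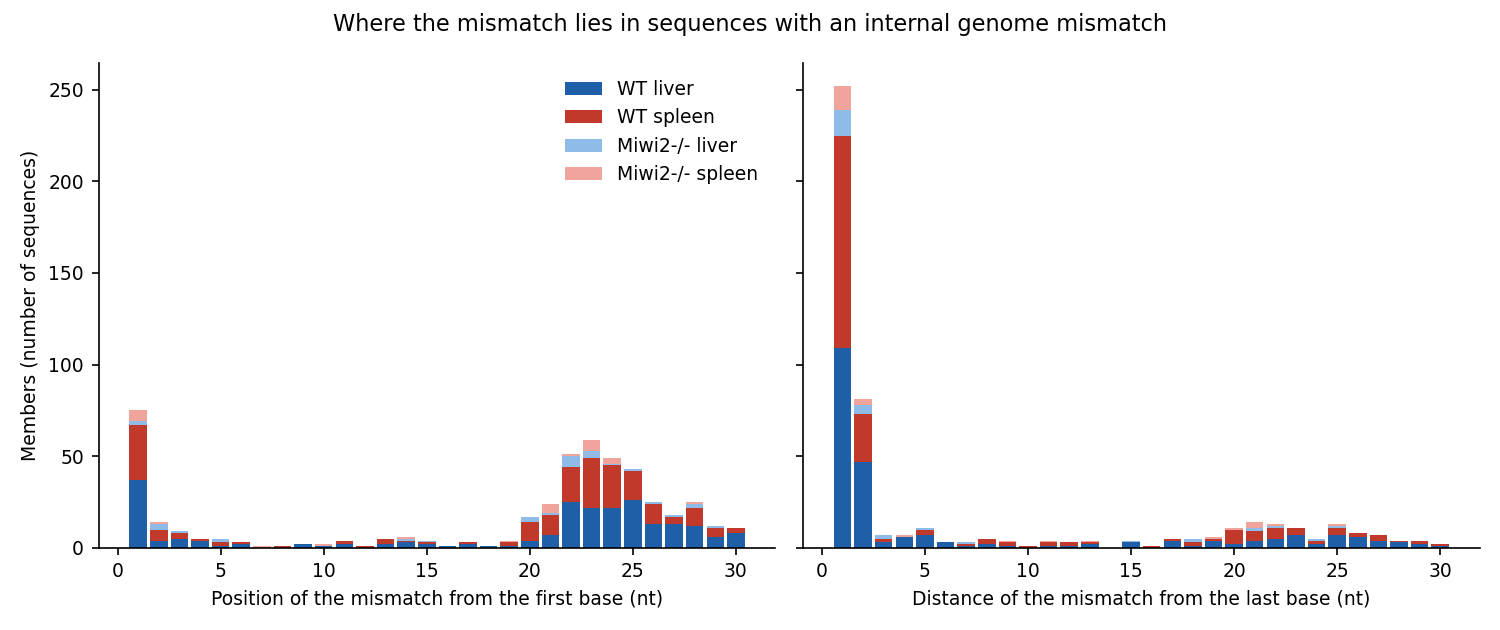
Number of members (vertical axis) by the position of the mismatch counted from the first base (left) and by its distance from the last base (right), in nt, stacked by list. The bar at 1 nt from the last base holds 252 members, the bar at 2 nt holds 81, and the bar at the first base holds 75.

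In each of the 4 lists the next-to-last base had the highest rate per position and the interior the lowest, while the first base and the third base from the end changed places between WT liver and WT spleen, with overlapping intervals. The next-to-last base held 109 of 240 members in WT liver (45.4%, 39.0 to 51.9%) and 116 of 202 in WT spleen (57.4%, 50.3 to 64.3%). It held 14 of 31 in Miwi2-/- liver and 13 of 27 in Miwi2-/- spleen. Interior mismatches per 1000 interior positions were 1.25 (0.920 to 1.66) for WT liver, 2.48 (1.19 to 4.56) for Miwi2-/- liver, 1.41 (0.954 to 2.02) for WT spleen and 2.04 (0.662 to 4.75) for Miwi2-/- spleen. The Miwi2-/- values were the higher ones but rested on 10 and 5 members, and their intervals overlap those of WT.

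At the limit of the rule, the last base (outside) and the next-to-last base (inside) differed in kind. Of the 2869 sequences mismatched at the last base, 2750 ended in A and 109 in C. Of the 252 members mismatched one base earlier, the new base was T in 159 and A in 82. A-to-T was the leading change there with 96 members, a change seen in 1 sequence at the last base.

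Over all members, the mismatched base was A or T in 447 of 500 (89.4%, 86.4 to 92.0%). A-to-T was the most frequent change with 115 members, followed by G-to-T with 76, C-to-A and T-to-A with 70 each, C-to-T with 65 and G-to-A with 51. A-to-C (13), T-to-C (11), T-to-G (11), A-to-G (7), G-to-C (7) and C-to-G (4) were rare. Transitions, which exchange a purine for a purine or a pyrimidine for a pyrimidine, made up 134 members against 366 transversions. The WT lists resembled each other here, with A or T as the new base in 91.7% of WT liver (87.4 to 94.8%) and 88.1% of WT spleen members (82.8 to 92.2%).

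**Figure D2:**
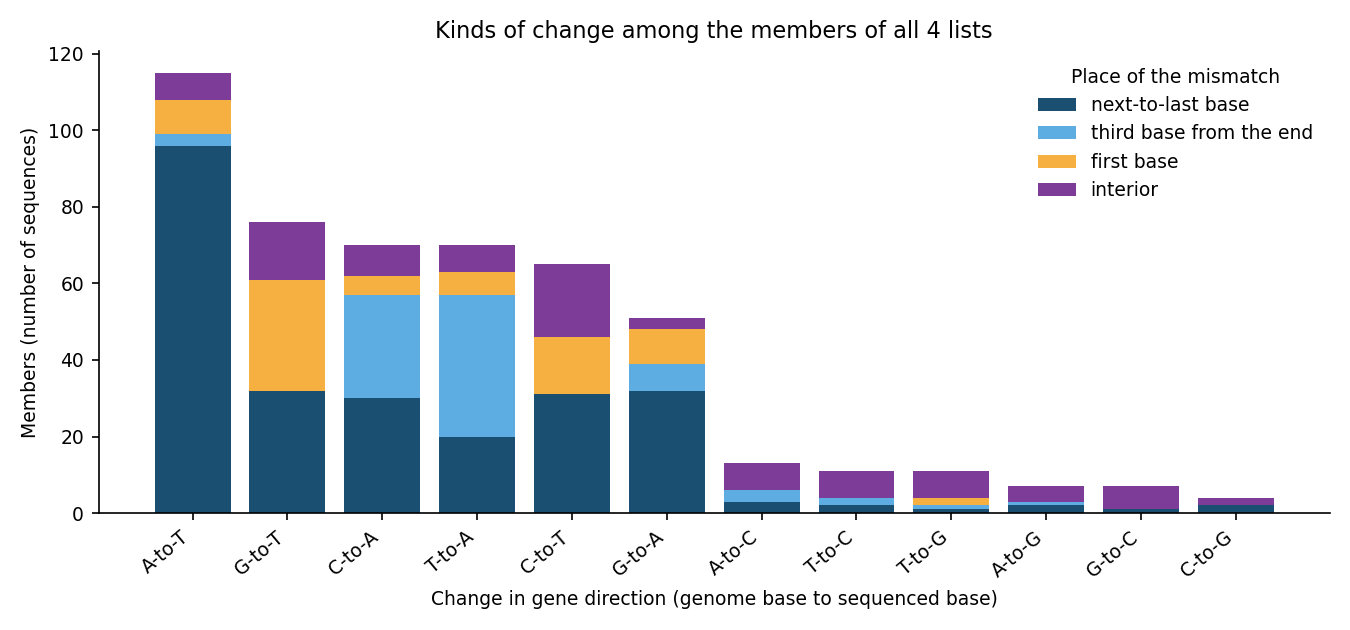
Number of members of all 4 lists (vertical axis) by the kind of change in gene direction, stacked by the place of the mismatch. A-to-T leads with 115 members, 96 of them at the next-to-last base, while A-to-G has 7 members.

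The 333 members mismatched within the last 3 bases fell into the forms shown above. In 137 the sequence ended in ATC, with the mismatched base being its T (80 members) or its A (57 members). Another 77 ended in a mismatched T followed by an A, 90 had only A from the mismatch to the end, and 29 had other ends. ATC ends were not common otherwise: they closed 21 of 2729 exact sequences (0.770%, 0.477 to 1.17%) and 2 of 92 interior members. At the last base only, 94 of 2869 sequences (3.28%, 2.66 to 3.99%) ended in ATC. The ATC ends were spread over 110 genes, so no single cluster carried them.

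ATC ends were more frequent in longer sequences. Of all sequences in these 3' UTRs, 10 of 1550 with 16 to 22 nt ended in ATC (0.645%, 0.310 to 1.18%), 170 of 3626 with 23 to 28 nt (4.69%, 4.02 to 5.43%) and 75 of 922 with 29 to 36 nt (8.13%, 6.45 to 10.1%). The 3' adapter of the small RNA v1.5 kit that the labels name begins with the bases ATC. The part of adapter bases in these ends, and in the single terminal A, was not tested. An added end of several bases enters these lists only where the genome happens to match all but 1 of them, so the number of such ends is a lower limit.

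The 2 WT lists differed in the mix of ends. ATC closed 81 of the 156 WT liver members mismatched in the last 3 bases (51.9%, 43.8 to 59.98%) and 42 of the 142 in WT spleen (29.6%, 22.2 to 37.8%). Ends with A only were 32 in WT liver (20.5%, 14.5 to 27.7%) and 48 in WT spleen (33.8%, 26.1 to 42.2%), and these 2 intervals overlap. Hist1h1c alone held 18 members changed to A, at any position, in WT spleen and 2 in WT liver. With 1 library each, tissue and library cannot be told apart. The Miwi2-/- lists had 9 ATC ends of 19 in liver and 5 of 16 in spleen, within the intervals of their WT tissues.

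In the WT lists, members were also longer than exact sequences. The median length was 26 nt against 24 nt in WT liver and 25 nt against 23 nt in WT spleen. Sequences of at least 27 nt made up 42.5% of members (36.2 to 49.0%) and 28.3% of exact sequences (26.1 to 30.6%) in WT liver, and 29.7% (23.5 to 36.5%) and 17.0% (14.6 to 19.7%) in WT spleen. Sequences mismatched only at the last base lay between, with medians of 25 nt in WT liver and 24 nt in WT spleen. Of these, 32.1% (29.8 to 34.5%) in WT liver and 24.8% (22.1 to 27.7%) in WT spleen had at least 27 nt. Members with an ATC end had a median of 26 nt over all lists, those with A only 24 nt. Interior members had a median of 25 nt in WT liver, where 42.6% (28.3 to 57.8%) had at least 27 nt, and of 23.5 nt in WT spleen, where 6 of 30 did. In Miwi2-/- liver the median was 24 nt for members and 22 nt for exact sequences. In Miwi2-/- spleen it was 23 nt for both, and at least 27 nt were found in 3.70% of members (0.0937 to 19.0%) and 13.6% of exact sequences (7.63 to 21.8%).

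For most members no counterpart without the change was listed. The exact sequence with the same first and last base was present in the same list for 36 of 500 members (7.20%), among them 24 of the 252 mismatched at the next-to-last base and 8 of the 92 interior members. For 12 of the 77 TA ends and 10 of the 90 ends with A only, the list held the same sequence cut before the mismatch, bare or with 1 A. For ATC ends this was so in 1 of 137.

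Mismatches at the first base were mainly to T. Of the 75 members, 53 changed to T (29 from G, 15 from C and 9 from A), 20 to A, 2 to G and 0 to C. Per 1000 first bases, G-to-T reached 87.3 (59.3 to 123), against 30.8 (17.3 to 50.3) for C-to-T and 6.63 (3.03 to 12.5) for A-to-T. The lists print every sequence along the plus strand of the genome, and the gene decided in which direction each was read, so an antisense small RNA would be read backwards. For such an RNA, a first base changed to T is a last base changed to A, the form that the rule leaves out.

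The deposited cluster files give a strand of their own, which differed from that of the gene for 37 sequences. Of these 37, 23 were members (62.2%), against 7.85% of the 6054 sequences for which both strands were the same. Read along the cluster strand, 21 of the 23 differ from the genome only by an A at the last base and would not be members. They lay in 14 genes, such as Mfsd4, Zfp385c, Sytl3, Elf2 and Rai1, named after their values were seen, and Atrip. The other first-base members to T were 30 on the strand of their cluster and 2 in clusters of both strands or none. Only 9 of those 30 ended in A in gene direction, where 79.6% of the exact sequences (78.1 to 81.1%) did so. Whether these 30 are antisense small RNAs was not tested.

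In the interior, away from both ends, C-to-T had the highest rate with the 4 lists pooled. It was found in 19 members of 19 different genes, 1.71 per 1000 interior C (1.03 to 2.66), followed by G-to-T with 15 members and 1.07 per 1000 G (0.598 to 1.76). C-to-A reached 0.719 (0.310 to 1.42). A-to-G had 4 members and 0.193 per 1000 A (0.0525 to 0.494), among the lowest of the 12 changes, together with C-to-G at 0.180 and G-to-A at 0.214. The intervals of C-to-T and A-to-G do not overlap. T-to-C, which A-to-G would become if read on the other strand, stood at 0.362 (0.146 to 0.746), an interval that overlaps that of A-to-G.

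**Figure D3:**
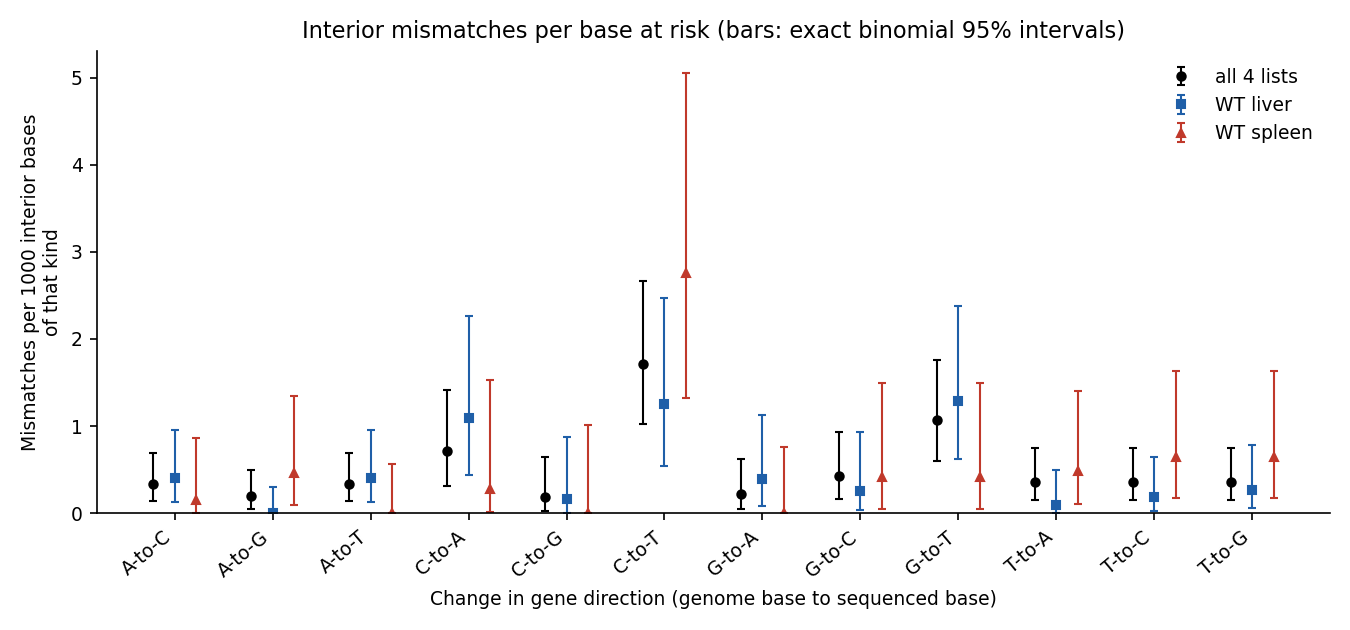
Interior mismatches per 1000 interior bases of the same kind (vertical axis) for the 12 changes, with exact binomial 95% intervals, for all 4 lists, WT liver and WT spleen. C-to-T is highest with the lists pooled, at 1.71, and A-to-G stands at 0.193.

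The interior C-to-T changes came from both WT lists, 8 from WT liver at 1.25 per 1000 C (0.542 to 2.47) and 10 from WT spleen at 2.75 (1.32 to 5.06), with 1 from Miwi2-/- liver and 0 from Miwi2-/- spleen. G-to-T had 10 members at 1.29 per 1000 G (0.619 to 2.37) in WT liver, 2 at 0.413 (0.0500 to 1.49) in WT spleen, 3 at 3.55 (0.732 to 10.3) in Miwi2-/- liver and 0 in Miwi2-/- spleen. C-to-T was thus the higher of the pair in WT spleen only. The base before the changed C was T in 10 of 19 members, where 28.6% of all interior C follow a T, and the base after it was T in 9 of 19, where 40.8% precede a T. The changed C was followed by G in 3 of 19, while 5.54% of interior C stand before a G. With 19 members these counts describe the sequences and carry no test. Examples from WT lists are shown with the changed base in capitals, 3 with a T before it and 1, from Trim25, with an A. Oat (ornithine aminotransferase) lies at chr7:139749419-139749448, Iqgap1 (a cytoskeletal scaffold) at chr7:87858159-87858182 and Mlec (malectin, of the endoplasmic reticulum) at chr5:115593523-115593544 (all on the minus strand), and the Trim25 member at chr11:88880858-88880886 on the plus strand. The examples were chosen after their values were seen.
Oat, WT liver: aagtaaacttttTattggccaacaccagaa
Iqgap1, WT liver: tttgaattctTcaataaatctgga
Mlec, WT spleen: atgtTgtggcaaaactaggaaa
Trim25, WT spleen: aactggataaagaacaTtcaagagagaga

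A-to-G was 7 of 500 members (1.40%, 0.565 to 2.86%), 1 of 240 in WT liver, 4 of 202 in WT spleen, 2 of 31 in Miwi2-/- liver and 0 of 27 in Miwi2-/- spleen. A count of 0 of 27 allows a share of up to 11.1% when 3 sequences are taken as the limit, or 12.8% by the exact interval, so the Miwi2-/- spleen list could not show a share like that of the others. Over all positions but the last, the lists held 0.286 A-to-G mismatches per 1000 A (0.115 to 0.590), against 4.70 (3.88 to 5.64) for A-to-T and 0.532 (0.283 to 0.909) for A-to-C. By list, the A-to-G rate per 1000 A was 0.0695 in WT liver (0.00176 to 0.387), 0.518 in WT spleen (0.141 to 1.33) and 1.33 in Miwi2-/- liver (0.161 to 4.80). The Miwi2-/- liver value rested on 2 sequences and its interval overlaps that of WT liver.

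Of the 7 sequences printed above, 3 had the G within the last 3 bases (Pgrmc1, Hist1h1c and Scd1) and 4 in the interior. The interior changes were A8G in C130039O16Rik, A3G in Etnk1, A13G in Hs6st2 and A15G in Errfi1, with positions counted from 1 at the 5' end of the sequence. The base before the A was A in 3 of these 4 and T in Hs6st2. Each A-to-G change was seen in 1 sequence of 1 list. In 5 of the 7 cases no exact sequence of any list covered the position. The Etnk1 position was covered by 1 exact sequence and the Hist1h1c position by 15, the only A-to-G position with more than 1 exact sequence.

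No member of a gene known for RNA editing carried the change that its editing gives. Of 13 genes known as ADAR targets, 3 had sequences (Slc7a2 with 28, Igfbp7 with 4 and Cdk13 with 3), and the 3 members among them were G-to-A and C-to-A in Slc7a2, a cationic amino acid transporter, and A-to-T in Cdk13. Of 18 genes known as APOBEC1 targets, 4 had sequences. These were Apob, which encodes apolipoprotein B (19), Usp25 (11), Tmem30a (6) and Serinc1 (4), and 0 of their 40 sequences were members. Over all genes, 500 of 6098 sequences were members, 65 of them C-to-T and 7 A-to-G. At such shares, sequences as few as those of the listed genes could hold none of these changes, so their absence says nothing about known targets. The known edited positions themselves were not looked up, and the lists hold few sequences per gene, so editing at them was not detectable here unless it fell in these sequences. Only sequences in 3' UTRs were used, so an edited position in a coding region could not appear, and the counts say nothing about such positions.

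Repeated mismatches at the same place were few. The members lay at 455 combinations of genome position and change, of which 17 recurred in at least 2 distinct sequences, 3 in at least 3 and 2 in at least 4. In 16 of the 17 the change lay within the last 3 bases of every sequence that carried it. The new base was A at 8 of the 17 and T at 8, and 0 were A-to-G. At 5 positions no covering sequence matched the genome, at the other 12 at least 1 did. The recurrent sites held 57 members in 13 genes, 7 sites were found in WT and Miwi2-/- lists and 4 in liver and spleen lists.

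The leading recurrent sites were in Hist1h1c, the gene with the most members. Its mRNA is of the replication-dependent kind, which ends after a conserved stem-loop instead of a poly(A) tail. T-to-A at chr13:23831433 was carried by 10 distinct sequences, with 9 entries in WT spleen and 3 in Miwi2-/- spleen, and 26 covering sequences matched the genome there. G-to-A at chr13:23831430 was carried by 7, with 6 entries in WT spleen, 3 in Miwi2-/- spleen and 1 in WT liver, and 48 matched the genome. All 7 of the latter ended at position 23831431 and differed only in their start, which lay between 23831405 and 23831411. Of the former, 6 ended at 23831434 and 4 at 23831435, with A only from the mismatch to the end. Among sequences that ran at least 3 bases past these sites, 13 and 36 had the genome base and 0 the change. Sequences of this ladder, all from the plus strand, are shown with the mismatched base in capitals.
Hist1h1c, 23831405-23831431, WT spleen: cacttaagagctgtgacatttgtgtAa
Hist1h1c, 23831408-23831431, WT spleen and Miwi2-/- spleen: ttaagagctgtgacatttgtgtAa
Hist1h1c, 23831410-23831431, WT liver and both spleen lists: aagagctgtgacatttgtgtAa
Hist1h1c, 23831411-23831434, WT spleen and Miwi2-/- spleen: agagctgtgacatttgtgtgatAa
Hist1h1c, 23831411-23831435, WT spleen: agagctgtgacatttgtgtgatAaa
Hist1h1c, 23831411-23831435, genome: agagctgtgacatttgtgtgatTaa

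Hist1h1c held 36 members beside 50 exact sequences, so members were 41.9% (31.3 to 53.0%) of both together, above the 15.5% (14.3 to 16.8%) of all genes. They were 24 in WT spleen, 9 in Miwi2-/- spleen, 3 in WT liver and 0 in Miwi2-/- liver, and 27 of the 36 changed to A. Of the 36, 29 began 8 to 18 nt after the end of an inverted repeat of 6 bases around a loop of 4 (chr13:23831381-23831396). This repeat is the place of the stem-loop. The 29 members thus lie wholly past the stem-loop, with ends up to 43 nt after it. From which form of transcript they come was not tested. Of the 50 exact sequences, 36 began in the span of 12 nt that held the first bases of these 29 members, and 43 within 50 nt after the repeat. The spread of first bases was thus not particular to the members. Such repeats were rare, with 0.302% of all distinct sequences holding 1. A single member, from WT liver and at chr13:23831371-23831400, contained the repeat itself and changed C-to-T at its next-to-last base.
Hist1h1c, WT liver, with the repeat: caatccaaaaggctcttttcagagccacTa
Hist1h1c, genome: caatccaaaaggctcttttcagagccacCa

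**Figure D4:**
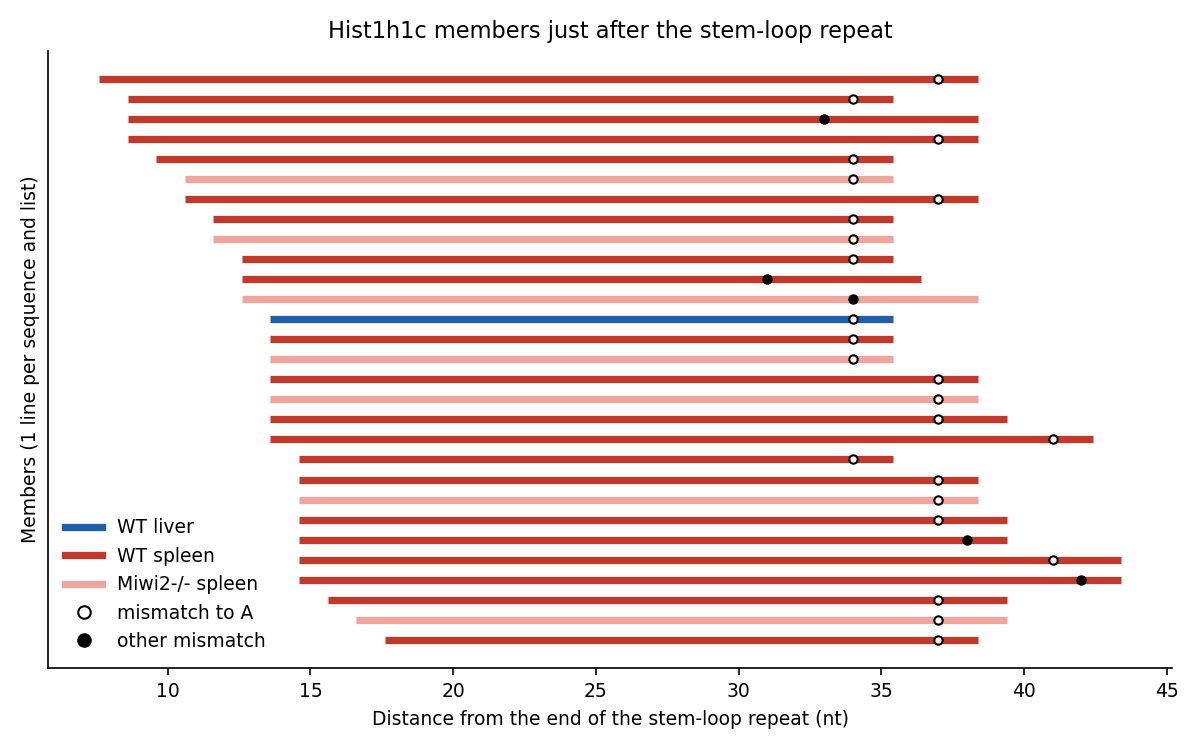
Each line is 1 of the 29 Hist1h1c members that begin within 50 nt after the inverted repeat, drawn from its first to its last base against the distance from the end of the repeat in nt, with a circle at the mismatch. First bases spread from 8 to 18 nt while the mismatches to A stack near the 3' ends.

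Mbnl1 also had recurrent changes close to the end of its sequences, but without the spread of first bases seen in Hist1h1c. Of its 14 members, 12 began at chr3:60431251 or 60431252, where 18 exact sequences began as well. T-to-A at 60431273 was carried by 3 distinct sequences of WT spleen, and A-to-T at 60431274 by 2, found in WT spleen, Miwi2-/- liver and Miwi2-/- spleen. The genome base was read in 10 and 11 covering sequences. Among sequences that ran at least 3 bases past these sites, only 1 and 0 had the genome base and 0 the change. A further Mbnl1 member from the same start carried G-to-T in the interior. Members were 29.8% (17.3 to 44.9%) of the Mbnl1 members and exact sequences together, an interval that lies just above the value of all genes.

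Of the other genes with many members, Trim25, 4933403F05Rik and Scd1 had them at scattered places. Trim25 held 20, which was 16.7% (10.5 to 24.6%) of its members and exact sequences together, at 17 positions. Of these, 15 were at the next-to-last base and 5 in the interior. Others were 4933403F05Rik with 11 (16.7%, 8.62 to 27.9%) and Scd1, which makes monounsaturated fatty acids, with 8 (8.60%, 3.79 to 16.2%). Mat1a, Tnrc6b and Zhx3 held 5 each, and AI464131, Adh1, Atrip, Dnmt3a, Errfi1, Fgg, Mllt6 and Tdo2 held 4 each. Some of these were not scattered: within a span of 12 nt began 4 of 4 members in AI464131 and 3 of 4 in Adh1 and in Dnmt3a. Trim25 and 4933403F05Rik stood near the share of all genes and Scd1 below it. In Atrip, 3 of the 4 were first-base changes to T on the strand opposite to that of the cluster. Of the 790 genes with sequences, 279 had members, 186 of them a single one.

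**Figure D5:**
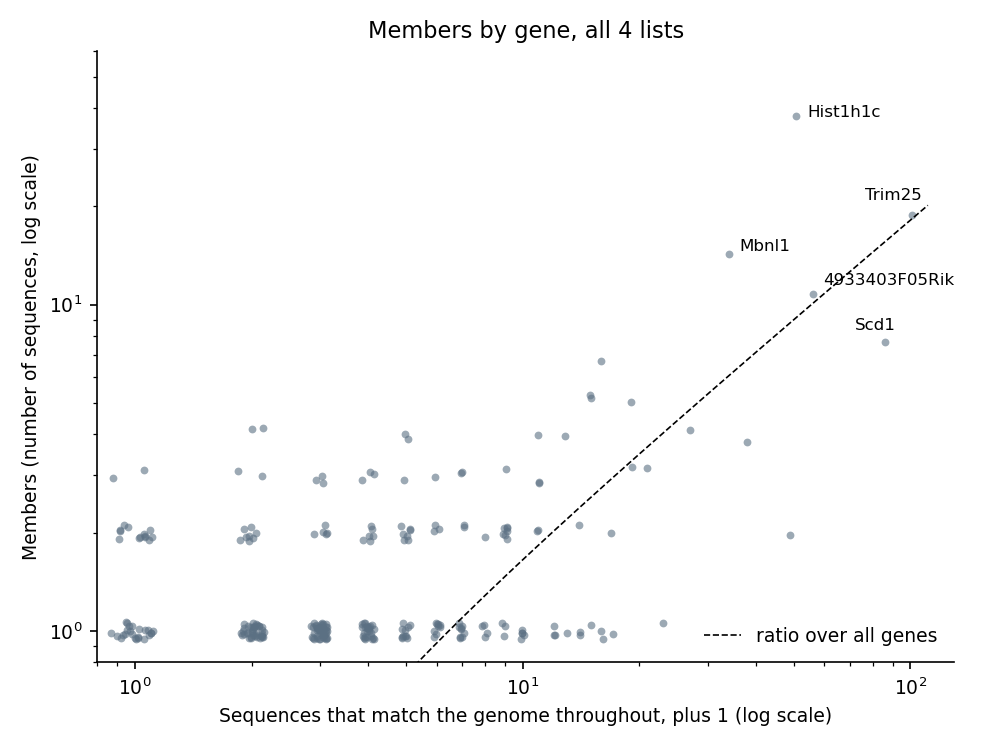
Members of each gene (vertical axis, log scale) against its exact sequences plus 1 (horizontal axis, log scale), with a small random shift to separate points and a dashed line at the ratio over all genes. Hist1h1c (36 members, 50 exact) and Mbnl1 lie above the line, Trim25 (20 and 100) and 4933403F05Rik near it and Scd1 (8 and 85) below it.

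Sites away from the ends that were seen more than once were rarer still. A G-to-C change in Setbp1, a nuclear protein gene, lay 18 nt before the last base in 2 distinct sequences, 1 from WT liver and 1 from Miwi2-/- liver, and no sequence with the genome base covered it. A T-to-C change in Trim25 (T14C, chr11:88880713-88880735) was carried by the same sequence in WT spleen and Miwi2-/- spleen, again with 0 covering sequences that matched the genome. These 2 sites, chosen after their values were seen, were the only ones in the interior found in more than 1 list.
Trim25, WT spleen and Miwi2-/- spleen: ctctggattgaggCgtgggtgaa
Trim25, genome: ctctggattgaggTgtgggtgaa

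Lists of the same tissue shared members about as often as exact sequences. WT spleen and Miwi2-/- spleen shared 7 members, which was 3.47% of the WT and 25.9% of the Miwi2-/- members, where 21 exact sequences were shared (2.40% and 20.4%). WT liver and Miwi2-/- liver shared 3 members (1.25% and 9.68%), where 16 exact sequences were shared (1.02% and 8.89%). Of sequences mismatched only at the last base, 13 were shared in spleen (1.38% and 10.1%) and 18 in liver (1.13% and 8.53%). Of the 7 members shared in spleen, 6 were mismatched at the next-to-last base, and some were the Hist1h1c sequences shown above. The 2 WT lists had 3 members in common and the 2 Miwi2-/- lists 1.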

How the data were processed

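Small RNA of about 24 to 31 nt by the labels, or 22 to 35 nt by the study's methods, was sequenced from 1 mouse per genotype. The submitters' processing notes name CASAVA 1.8, cutadapt, Bowtie, bedtools and mm9. The authors trimmed adapters at a tolerance of 25% mismatch, merged reads of the same sequence, took out known non-coding RNAs and kept unique alignments of at most 1 mismatch that lay in 3' UTR clusters. The deposited lists hold sequences only, without counts, and the deposited cluster files of the WT tissues hold regions with strand and a constant score.

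All 7793 sequences without N were placed without gaps on NCBIM37, the build of mm9, allowing 1 mismatch (Python 3.11.15, numpy 2.4.6, numba 0.67.0). In a test on 600 simulated sequences, cut from 1 chromosome and searched on it alone, 100% had their own position among the placements found. The single best placement over the whole genome was not tested in this way. The steps below apply to the sequences of the lists. Each was assigned to a protein-coding GENCODE M1 3' UTR covering at least 50% of it on a single strand, and turned to gene direction. Sequences downstream of annotated 3' UTRs or in 3' UTRs of both strands were used only in an alternative. Members and exact sequences served as the denominator of rates. Recurrent sites needed 2 distinct sequences. Intervals are exact Clopper-Pearson 95% intervals (scipy 1.17.1). A list's precision is set by its size: 3 sequences are 0.0702% of WT liver, 0.114% of WT spleen, 0.536% of Miwi2-/- liver and 0.794% of Miwi2-/- spleen.

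No gene-by-gene comparison was made. Genes named are those with a site recurring in at least 3 sequences, the 10 with the most members and their ties, those of the editing lists with sequences, although only those with members were foreseen, and others where said to be chosen after their values were seen or as holders of A-to-G members. A gene chosen under these criteria is left out of the text. The members and lists were chosen with earlier results of these data known.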

Additional observations from a re-analysis of the deposited data

How the results depend on the processing

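Of the values recomputed under the alternatives, 122 stayed within the interval of the reported value, or within 1.5 times for counts, and 25 moved. Leaving out mismatches in the 3 bases next to the last base and at the first base lowered members to 1.03% of the list for WT liver, 1.43% for Miwi2-/- liver, 1.06% for WT spleen and 1.32% for Miwi2-/- spleen. By construction it left 0 next-to-last mismatches (0%) in every list. It left 1 recurrent site, and A-to-G became 0% of members and 0 per 1000 A in WT liver and 10.7% of members in WT spleen. With downstream and both-strand sequences added, members rose to 7.35% of WT liver, 9.95% of WT spleen and 10.3% of Miwi2-/- spleen, and the next-to-last share in WT spleen went to 48.1%. Without members that fit elsewhere at 2 mismatches, members were 4.35% of WT liver, 5.43% of WT spleen, 3.57% of Miwi2-/- liver and 3.97% of Miwi2-/- spleen. Without the ATC ends, an alternative chosen after seeing the data, they were 3.72% of WT liver and 6.07% of WT spleen, with 10 recurrent sites. Asking for 3 or 4 distinct sequences left 3 and 2 recurrent sites. Where an alternative does not follow by construction, the cause was not tested. Without Hist1h1c, with the strand of the deposited clusters, with a minimum of 20 nt, without small RNA genes, with whole sequences inside the 3' UTR, with all placed sequences as denominator or with each position and change counted 1 time, none of the values run moved. No paired analysis was possible because each group has 1 library. The Miwi2-/- lists, with 31 and 27 members, limit what could be seen there, the lists hold no read counts, and the strand of each RNA is not in the lists.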
